A study of Mus musculus with 6 samples.

Results

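The 10 genes described here encode proteins that package maternal mRNA in the mouse egg: Ybx2, Ybx1, Lsm14a, Lsm14b, Ddx6, Zar1, Zar1l, Pabpc1, Pabpc1l and Pabpn1l. They were taken by gene symbol from a deposited table of 24254 named genes. The rule itself uses no measured value, but the genes were proposed with earlier results of these data known. All 10 were in the table, and each had a mean of at least 1 FPKM (fragments scaled to transcript length and to the mapped fragments of the library) in both groups. The table gives 1 value per gene for 6 RNA-seq libraries of oocytes at metaphase II. In 3 libraries the oocytes had been matured in vitro (IVM), and in 3 they had matured in vivo (IVO). The question, as the series title puts it, is how the transcriptome of mouse oocytes matured in culture differs. Strain, age of the females, hormone treatment, culture medium, and the number of eggs per library are not stated in the labels. Nothing says that replicates came from separate animals, so p-values measure the spread between these libraries, which may be technical.

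A fully grown oocyte transcribes little and relies on mRNA made earlier, much of which is kept untranslated in ribonucleoprotein particles with short poly(A) tails. Cold shock domain proteins (Ybx2, Ybx1) coat the mRNA, Ddx6 and the Lsm14 proteins repress it, and the zinc finger proteins Zar1 and Zar1l bind its 3′ untranslated region. During meiotic maturation selected messages gain poly(A), cytoplasmic poly(A)-binding proteins (Pabpc1l, Pabpc1) occupy the tails and translation begins, while Pabpn1l helps to recruit the deadenylation machinery that clears maternal mRNA.

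In eggs matured in vitro, Ybx2, Zar1l, Pabpc1l and Ddx6 had higher FPKM and Lsm14b and Lsm14a lower FPKM. Poly(A) tails were not measured, and how far FPKM depends on their length is not known here. The largest rise was that of Zar1l, 5.58-fold in mean FPKM, followed by Pabpc1l at 4.63-fold and Ybx2 at 3.71-fold. Lsm14b moved the other way, with a mean FPKM 3.06-fold higher in IVO. For Ybx1, Zar1, Pabpc1 and Pabpn1l no difference passed the test. The result is 4 genes higher, 2 lower and 4 not past an adjusted p of 0.05 (limma on log2(FPKM + 1), Benjamini-Hochberg adjustment over 7746 tested genes). Over all tested genes 41.0% passed, 20.6% higher and 20.4% lower in IVM, so 6 of 10 is a count from a comparison in which many genes differed. The groups did not overlap for 6 of the 10 genes, the same 6 that passed, against 53.5% of all tested genes. The median log2 difference was 0.19 over the 10 genes and -0.02 over all tested genes. Several other oocyte transcripts were higher in IVM along with Ybx2, Zar1l and Pabpc1l. Of 10 oocyte markers, 9 lay higher in every IVM library than in every IVO library, and Oosp1 overlapped. Over all genes tested, 2000 of 7746 lay higher in this way. Figla, among the 9, stayed under 1 FPKM in all libraries and was not tested. The ooplasmic protein gene Nlrp5 was at 365 to 371 FPKM in IVM and 30.0 to 48.2 in IVO. The zona pellucida gene Zp3 was at 191 to 237 and 12.98 to 21.06, and the growth factor gene Bmp15 at 1816 to 1971 and 375 to 709. Gdf9, at 7946 to 8707 and 6380 to 7465, and Dazl, at 203 to 270 and 152 to 175, shifted less. Btg4, outside this marker list, was lower in IVM, at a mean of 2668 against 3445. The part of the marker shift in the rise of the storage genes was not tested.

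**Figure D1:**
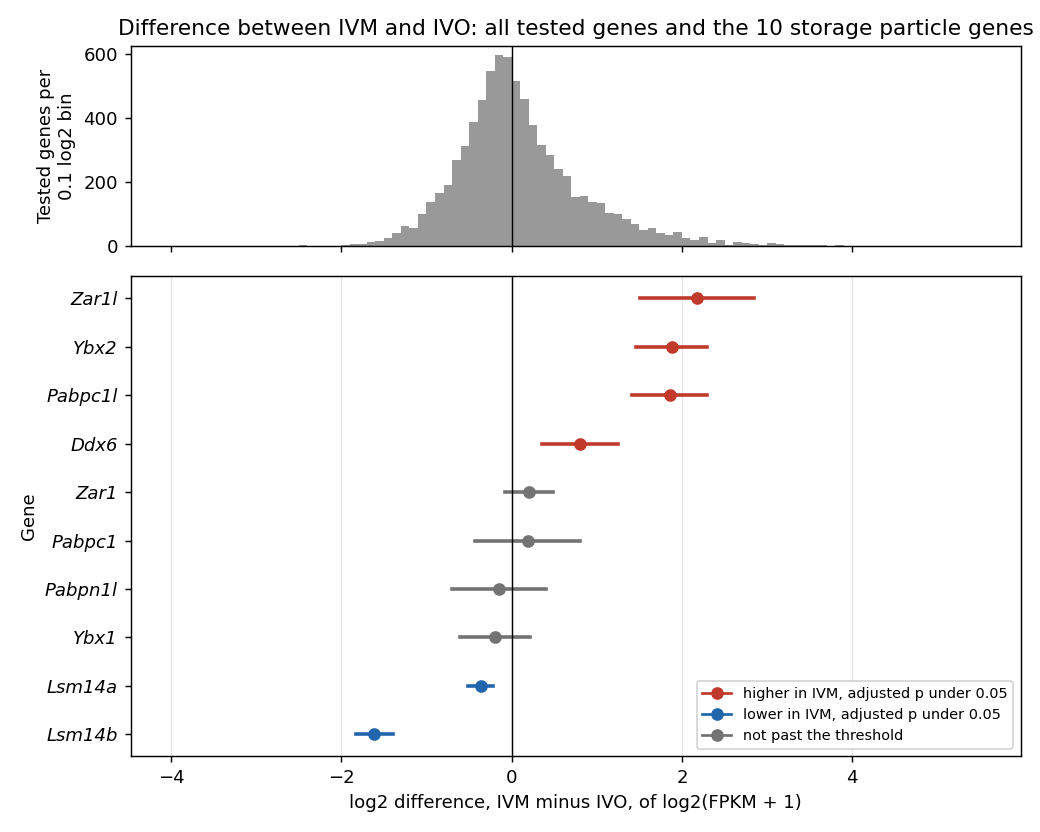
The top panel counts all 7746 tested genes by their log2 difference (IVM minus IVO, on the log2(FPKM + 1) scale), and the lower panel gives the difference of each of the 10 genes with its 95% confidence interval from limma. The genes run from Lsm14b at -1.61 to Zar1l at 2.18, and the 4 grey intervals cross 0.

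The 3′ ends of these mRNAs are shown because storage and recruitment act through them. A poly(A) signal (AATAAA or ATTAAA) and, in stored messages, a cytoplasmic polyadenylation element (CPE, TTTTAT or TTTTAAT) lie near the end of the transcript. Both were searched on the transcript strand in the last 100 bases of 1 annotated transcript per gene (GENCODE M21, build GRCm38). Of the related genes compared in the results, the Y-box, Lsm14, Zar and cytoplasmic poly(A)-binding pairs are given 5′ to 3′ as 30-base windows. Capitals mark the CPE in Ybx2, Ybx1 and Lsm14a and a poly(A) signal sequence in the others. Use of these sequences was not examined.
Ybx2 (chr11:69941532-69941561, plus strand): cctctgaagccaTTTTATgaactgtcatgt
Ybx1 (chr4:119278051-119278080, minus strand): taagaacttcatTTTTAATttgtaataaag
Lsm14b (chr2:180035429-180035458, plus strand): aaatgcaaactaAATAAAcattggactctt
Lsm14a (chr7:34344670-34344699, minus strand): gccactttgtgtTTTTAATaaaggccatgg
Zar1 (chr5:72577117-72577146, minus strand): ataaagcctgtgAATAAAaggtattgcaaa
Zar1l (chr5:150507056-150507085, minus strand): tcttcagcttaaAATAAAccttgtgacagt
Pabpc1l (chr2:164050505-164050534, plus strand): tttgctttatatATTAAAaaatgctgcaaa
Pabpc1 (chr15:36595664-36595693, minus strand): aattcttgctttAATAAAaattccttaaac

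A CPE was found in 3 of the 10 genes and in 23.7% of 7213 tested genes with a coding transcript. The TTTTAAT of Lsm14a shares its last bases with an AATAAA. A poly(A) signal was found in 9 of 10, against 83.9% of those genes, and Ybx2 was the one without either hexamer in this window. The CPE was present in a gene that rose (Ybx2), in one that fell (Lsm14a) and in one not past the threshold (Ybx1). The annotated 3′ untranslated region of Zar1l is 14 bases, so its AATAAA, which begins 19 bases before the transcript end, overlaps the end of the coding sequence. That of Zar1 is 146 bases and that of Ddx6 4250, with a median of 428.5 over the 10 genes and 1173 over the tested genes.

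Ybx2 encodes the germ cell Y-box protein (MSY2), an abundant mRNA coat protein of the mouse oocyte. The gene (ENSMUSG00000018554.13, GRCm38 chromosome 11, 69935796 to 69941605) was at 82.8, 74.1 and 80.6 FPKM in IVM replicates 1 to 3 and at 28.3, 15.8 and 19.9 in IVO replicates 1 to 3. Every IVM library lay above every IVO library, and the IVO values were the more scattered. The log2 difference was 1.88 (SE 0.183, limma with Benjamini-Hochberg adjusted p = 0.000109, higher in 3 of 3 libraries). Its rise ranked 229 among the 7746 tested genes.

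Ybx1 is the broadly expressed relative of Ybx2. It was at 17.99, 18.08 and 20.98 FPKM in IVM and at 21.26, 28.96 and 16.98 in IVO (chromosome 4, 119277981 to 119294604). The IVM values fell inside the range of the IVO values. The log2 difference of -0.20 had a 95% interval of -0.61 to 0.22 (limma, Benjamini-Hochberg adjusted p = 0.424). The annotation holds 1 pseudogene named after Ybx1, so its level is uncertain where reads were shared. The ranges of both Y-box genes overlapped in IVO, whereas Ybx2 exceeded Ybx1 in every IVM library.

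Lsm14b and Lsm14a encode paralogous Sm-like proteins that bind Ddx6 in repressed particles, and Lsm14b is needed in mice for oocyte meiosis. Lsm14b (ENSMUSG00000039108.14, chromosome 2, 180024987 to 180035465) was at 304, 292 and 251 FPKM in IVM and at 782, 895 and 919 in IVO. The lowest IVO library lay far above the highest IVM library. Its log2 difference of -1.61 (SE 0.0959, limma with Benjamini-Hochberg adjusted p = 1.06e-05) was the fall ranked 34 among the tested genes. In mean level it was the gene ranked 52 of 7746 in IVO and 181 in IVM.

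Lsm14a was steady within each group, at 370, 370 and 366 FPKM in IVM and at 490, 475 and 460 in IVO (ENSMUSG00000066568.12, chromosome 7, 34344646 to 34393315). The groups did not overlap, and the coefficient of variation was 0.641% in IVM and 3.19% in IVO. It fell by much less than Lsm14b, by 0.36 on the log2 scale (SE 0.0635, limma with Benjamini-Hochberg adjusted p = 0.00204). Annotated genes on both strands overlap the span of Lsm14a, among them an antisense gene and Gm44567 on its own strand. With strandedness not given, reads of Lsm14a and of these genes could not be told apart where exons overlap. Such overlap was not examined.

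Ddx6, a DEAD-box RNA helicase of repressed mRNA particles, was below the other 9 genes in IVO and overlapped with Pabpc1 at the low end in IVM. The transcript models behind the FPKM values are unknown, so levels per length, and the order of genes by level, may depend on them. It was at 2.46, 3.46 and 2.88 FPKM in IVM and at 0.949, 1.44 and 1.38 in IVO (ENSMUSG00000032097.10, chromosome 9, 44604892 to 44640731). Every IVM library was above every IVO library. The log2 difference was 0.80 (SE 0.197, limma with Benjamini-Hochberg adjusted p = 0.0108). At this level the added 1 shrinks the difference, and with 0.01 in its place it was 1.23. The call was lost without IVM replicate 2 (adjusted p = 0.0575) and under quantile normalization (adjusted p = 0.0566). An annotated antisense pseudogene overlaps Ddx6 as well, and so do E030022I16Rik and Gm47234 on its own strand. Whether their exons overlap those of Ddx6 was not examined.

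**Figure D2:**
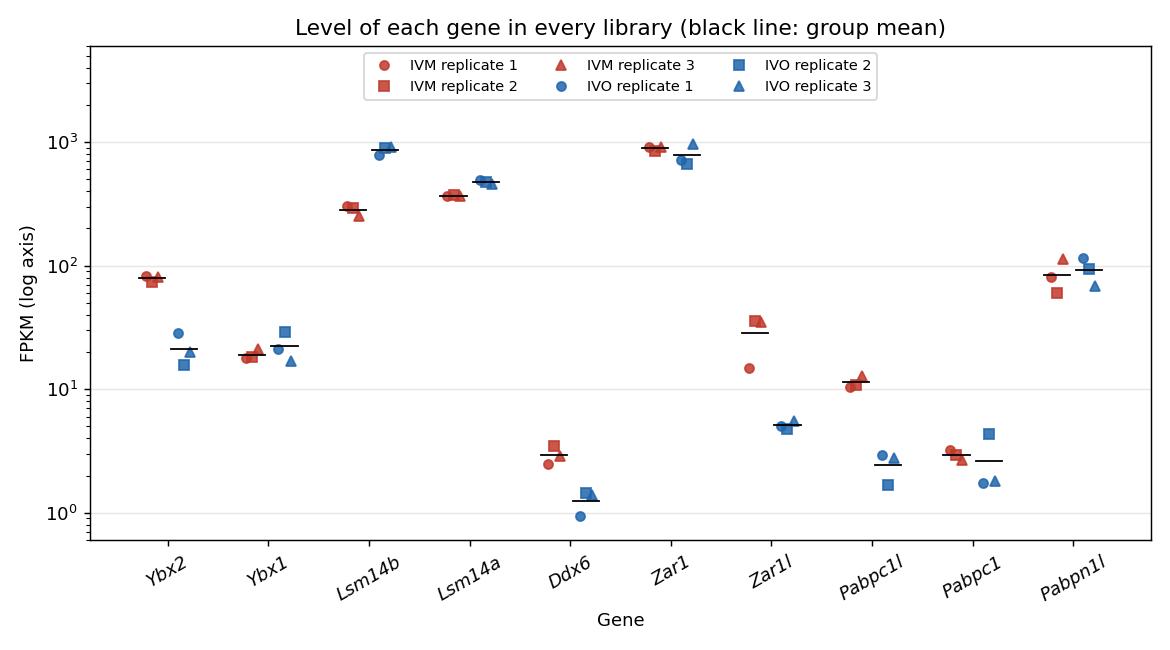
FPKM on a log axis for each gene in the 6 libraries (red, IVM; blue, IVO; symbol, replicate number; black line, group mean). Ybx2, Zar1l, Pabpc1l and Ddx6 are higher in all IVM libraries, Lsm14b and Lsm14a in all IVO libraries, and the other 4 genes overlap between groups.

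Zar1 and Zar1l are oocyte zinc finger proteins that bind maternal mRNA, and in mice Zar1 organizes stored mRNA around mitochondria. Zar1 was at 913, 843 and 913 FPKM in IVM and at 719, 668 and 964 in IVO (ENSMUSG00000063935.3, chromosome 5, 72576806 to 72581254). The highest value belonged to IVO replicate 3, and both other IVO libraries lay below all IVM libraries. The log2 difference of 0.20 had a 95% interval of -0.08 to 0.48 (limma, Benjamini-Hochberg adjusted p = 0.234). Without IVO replicate 3 it was 0.36 (adjusted p = 0.00362), and under quantile normalization it was 0.33 (adjusted p = 0.0363).

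Zar1l was far less abundant, at 14.8, 35.7 and 35.2 FPKM in IVM and at 5.01, 4.78 and 5.55 in IVO (ENSMUSG00000056586.8, chromosome 5, 150507055 to 150518164). IVM replicate 1 was below the other IVM libraries and still above all IVO libraries. The log2 difference was 2.18 (SE 0.296, limma with Benjamini-Hochberg adjusted p = 0.000568). An annotated processed pseudogene lies within or across the span of Zar1l on the same strand. Reads of both could not be told apart where it overlaps an exon, which was not examined. Leaving IVM replicate 1 out gave 2.58. Among the tested genes its rise ranked 133. The coefficient of variation was 41.6% in IVM and 7.73% in IVO.

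Pabpc1l, the poly(A)-binding protein characteristic of oocytes and early embryos, was at 10.4, 10.9 and 12.9 FPKM in IVM and at 2.95, 1.67 and 2.75 in IVO (ENSMUSG00000054582.4, chromosome 2, 164025450 to 164050538). The groups were well apart. Its log2 difference was 1.86 (SE 0.196, limma with Benjamini-Hochberg adjusted p = 0.000162). Pabpc1, the general cytoplasmic poly(A)-binding protein of somatic cells, was at 3.21, 2.93 and 2.67 in IVM and at 1.73, 4.36 and 1.81 in IVO (chromosome 15, 36595661 to 36609668). A single library, IVO replicate 2, lay above the IVM values, and the others lay below them. Its log2 difference of 0.19 had a 95% interval of -0.43 to 0.80 (limma, Benjamini-Hochberg adjusted p = 0.617), and without IVO replicate 2 it was 0.50 (adjusted p = 0.0787).

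Pabpn1l is an oocyte relative of the nuclear poly(A)-binding protein Pabpn1 and in mice acts with Btg4 in clearing maternal mRNA. It was at 81.0, 59.6 and 112.7 FPKM in IVM and at 116, 93.6 and 68.2 in IVO (chromosome 8, 122619471 to 122622739). The groups overlapped across most of their ranges. The log2 difference of -0.15 had a 95% interval of -0.70 to 0.40 (limma, Benjamini-Hochberg adjusted p = 0.662). An annotated gene on the opposite strand overlaps Pabpn1l.

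The authors' deposited table calls the same 6 genes at a q-value under 0.05. In the authors' deposited table Ybx2, Lsm14b, Ddx6, Zar1l and Pabpc1l each have a q-value of 0.000248 and Lsm14a has 0.00572. The genes that share a q-value also share a deposited p-value, so these values do not rank them against each other. Of the tested genes 44.7% have a q-value under 0.05 in the authors' deposited table.

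Related genes were set against each other within each library, which removes any scaling between libraries. Ybx2 was 3.84 to 4.60 times Ybx1 in IVM and 0.546 to 1.33 times in IVO. Lsm14b was 0.685 to 0.823 times Lsm14a in IVM and 1.60 to 2.00 times in IVO, so the more abundant of these paralogs was Lsm14a in every IVM library and Lsm14b in every IVO library. Zar1l was 0.0162 to 0.0423 times Zar1 in IVM and 0.00576 to 0.00716 times in IVO.

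For the cytoplasmic poly(A)-binding proteins, Pabpc1l was 3.24 to 4.82 times Pabpc1 in IVM and 0.383 to 1.70 times in IVO. The groups did not overlap for any of these 4 ratios. The group means differed by 2.14 (Ybx2 to Ybx1), -1.25 (Lsm14b to Lsm14a), 2.18 (Zar1l to Zar1) and 1.96 (Pabpc1l to Pabpc1) on the log2 scale. By an exact permutation test, two-sided, each gave p = 0.1, the lowest value possible with 3 libraries a group, and 0.125 after Benjamini-Hochberg adjustment over the 5 ratios computed. The fifth ratio, Pabpn1l to Pabpn1, was 0.241 to 0.492 in IVM and 0.260 to 0.417 in IVO, with overlapping groups (exact permutation test, p = 1). An annotated coding gene overlaps Pabpn1 on the same strand.

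The lowest Ybx2 to Ybx1 and Pabpc1l to Pabpc1 ratios both belonged to IVO replicate 2, where Ybx1 and Pabpc1 were highest. Ybx2 and Pabpc1l were also lowest in that library, at 15.8 and 1.67 FPKM. Without that library the difference in the Pabpc1l to Pabpc1 ratio went from 1.96 to 1.27 on the log2 scale (3.88-fold to 2.41-fold) and that of Ybx2 to Ybx1 from 2.14 to 1.74. The summed FPKM of 16 cumulus and granulosa cell markers was 57.0 in this library and 24.8 in each of the other IVO libraries, and it was 46.7, 54.1 and 29.0 in IVM replicates 1 to 3. Of these 16 markers 9 reached a mean of 1 FPKM, and none was at 0 in all libraries, although Fshr was at 0 in every IVO library. The 16 did not move together between groups. Amh, Foxl2, Fshr, Inha and Kitl (5) were higher in every IVM library than in every IVO library. Inhba, Sdc4, Tnfaip6 and Vcan (4) were lower in every IVM library. Over all tested genes 53.5% did not overlap between groups. Among the IVO libraries replicate 2 was the highest for 11 of the 16 and replicate 3 for 4. Ptx3 was at 9.59 there against 2.33 and 0.803 in IVO replicates 1 and 3, and Ptgs2 at 7.54 against 2.77 and 2.98. In IVM, Inha reached 27.7 in replicate 2. The oviduct marker Spp1 was highest in IVO replicate 2 too, at 67.6 against 26.7 and 31.3 in the other IVO libraries. In IVM it was at most 12.2. Among the IVO libraries replicate 2 was the highest for 5 of the 9 oviduct markers. Cdh1 and Cldn4, which made most of the oviduct sum, were instead lower there than in the other IVO libraries. Whether their RNA came from oviduct cells or from the oocytes was not tested. Cdh1 was at 184 against 220 and 199 in IVO replicates 1 and 3, and Cldn4 at 20.04 against 35.79 and 30.61. The oviduct sum was highest in IVO replicate 1, at 283 against 276 in replicate 2. The part of cumulus, granulosa or oviduct cells in the levels of Ybx1 and Pabpc1 was not tested. The libraries are bulk RNA, in which a different share of cells and a different amount of RNA per cell cannot be told apart.

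**Figure D3:**
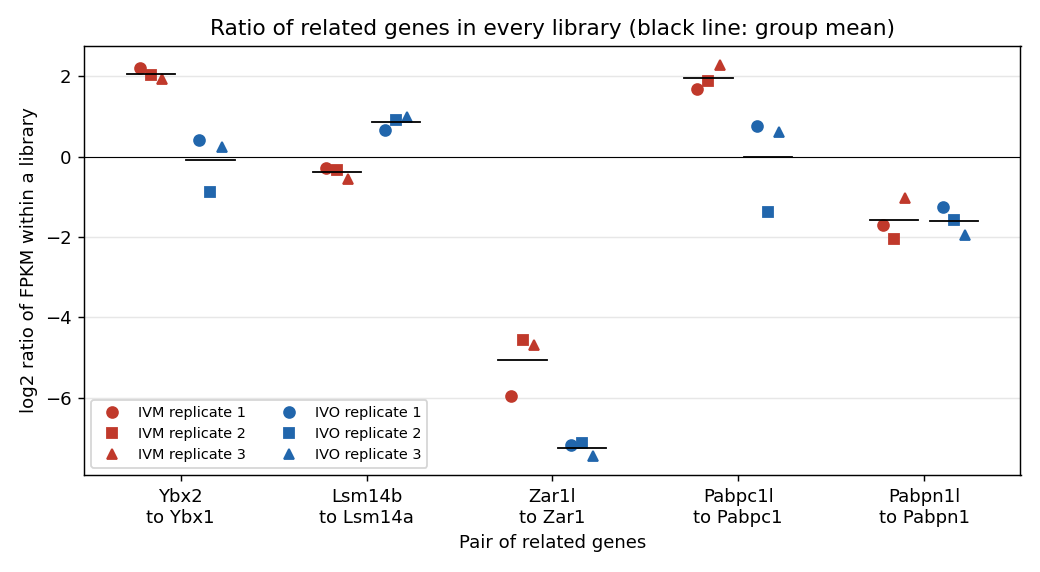
Log2 ratio of FPKM between related genes within each library (red, IVM; blue, IVO; symbol, replicate number; black line, group mean). Ybx2 to Ybx1, Zar1l to Zar1 and Pabpc1l to Pabpc1 are higher in IVM and Lsm14b to Lsm14a lower, with no overlap, while Pabpn1l to Pabpn1 overlaps.

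The order of the 10 genes by mean FPKM differed between the groups. In IVM it was Zar1, Lsm14a, Lsm14b, Pabpn1l, Ybx2, Zar1l, Ybx1, Pabpc1l, Pabpc1 and Ddx6. Neighbours whose libraries overlapped there were Pabpn1l and Ybx2, Zar1l and Ybx1, and Pabpc1 and Ddx6. In IVO the order was Lsm14b, Zar1, Lsm14a, Pabpn1l, Ybx1, Ybx2, Zar1l, Pabpc1, Pabpc1l and Ddx6, with overlap between Lsm14b and Zar1, between Ybx1 and Ybx2 and between Pabpc1 and Pabpc1l. Zar1, Lsm14a and Lsm14b together held 87.1 ± 1.74% of the summed FPKM of the 10 genes in IVM against 93.4 ± 1.71% in IVO (SD, n = 3). The 10 genes summed to 1769 ± 50.8 FPKM against 2271 ± 163, or 0.491 ± 0.0184% and 0.572 ± 0.0437% of each library's total (SD, n = 3).

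Partners of these proteins differed in both directions. Over 4 lists, 20 of 49 tested genes passed, 12 higher and 8 lower in IVM, or 40.8%, close to the 41.0% of all tested genes. Among partners of Ddx6 and Lsm14 proteins in storage and decapping, 15 of 21 listed genes were tested, 3 rose, 2 fell and 10 did not pass (median log2 difference 0.17). Lsm4, a subunit of the Lsm ring on deadenylated mRNA, averaged 10.2 ± 2.13 FPKM across the IVM libraries and 0.667 ± 0.421 across the IVO libraries (SD, n = 3). Cpeb1, which binds the CPE, was at 53.5 ± 3.71 and 25.9 ± 4.02, and Dcp1a, a decapping cofactor, was lower, at 910 ± 57.5 against 1489 ± 114. Edc4, a scaffold of the decapping complex named after its values were seen, was lower as well, at 28.2 ± 0.691 against 37.8 ± 2.48. Lsm7 was higher too, but its call was lost under 8 other settings at the same threshold. Of the other Lsm genes listed, Lsm1, Lsm2 and Lsm3 did not pass, and Lsm5 and Lsm6 were not tested. Eif4enif1, which links Ddx6 and Lsm14 proteins to the cap-binding protein, was at 31.5 ± 5.55 and 40.6 ± 9.52 and did not pass (limma with Benjamini-Hochberg adjusted p = 0.163).

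All 5 tested genes among 6 other cold shock domain genes passed, 3 higher and 2 lower (median 0.68). Ybx3, the third Y-box gene, averaged 19.4 ± 6.37 FPKM across the IVM libraries and 3.33 ± 0.718 across the IVO libraries (SD, n = 3). Its log2 difference was 2.20 with an SE of 0.238 (adjusted p = 0.000185 by limma). Of the Y-box genes, then, Ybx2 and Ybx3 rose and the difference of Ybx1 did not pass. Lin28b, a regulator of let-7 microRNA, was at 22.4 ± 0.712 and 11.3 ± 1.50, and Carhsp1 at 180 ± 5.75 and 112 ± 8.48. Lin28a, named after its values were seen, was lower, at 213 ± 18.7 in IVM and 314 ± 7.05 in IVO.

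Among other poly(A)-binding protein genes and their partners, 17 of 23 listed genes were tested, 6 rose, 1 fell and 10 did not pass (median 0.00806, mean 0.41). Paip2 and Paip2b, which encode inhibitors that displace poly(A)-binding protein from the tail, were both higher. Paip2 averaged 34.8 ± 14.0 FPKM in IVM against 2.31 ± 0.997 in IVO, and Paip2b averaged 181 ± 15.2 against 59.8 ± 9.38 (SD, n = 3). Tob2, an adaptor between poly(A)-binding protein and deadenylases, was higher too, at 23.7 ± 3.02 against 7.05 ± 0.204. Pan3, the deadenylase subunit that binds poly(A)-binding protein, was the gene that fell, with 39.4 ± 2.80 in IVM against 103 ± 9.45. Pabpn1 was at 246 ± 16.1 and 273 ± 9.54 and did not pass (limma with Benjamini-Hochberg adjusted p = 0.143).

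Of the clearance partners of Pabpn1l, 12 of 15 listed genes were tested, none was higher, 3 were lower and 9 did not pass (median -0.08). Btg4, the adaptor that joins Pabpn1l to the CCR4-NOT deadenylase, averaged 2668 ± 76.6 FPKM across the IVM libraries and 3445 ± 274 across the IVO libraries (SD, n = 3). Its log2 difference was -0.37 with an SE of 0.0704 (adjusted p = 0.00335 by limma). Cnot11, a CCR4-NOT subunit, was at 18.3 ± 1.30 and 34.8 ± 2.79. Zfp36l2 was lower as well, with a call lost under 8 other settings at the same threshold. The catalytic subunits Cnot7 and Cnot6l were at 820 ± 35.4 and 148 ± 0.464 in IVM and at 866 ± 9.19 and 118 ± 32.1 in IVO, and neither passed.

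**Figure D4:**
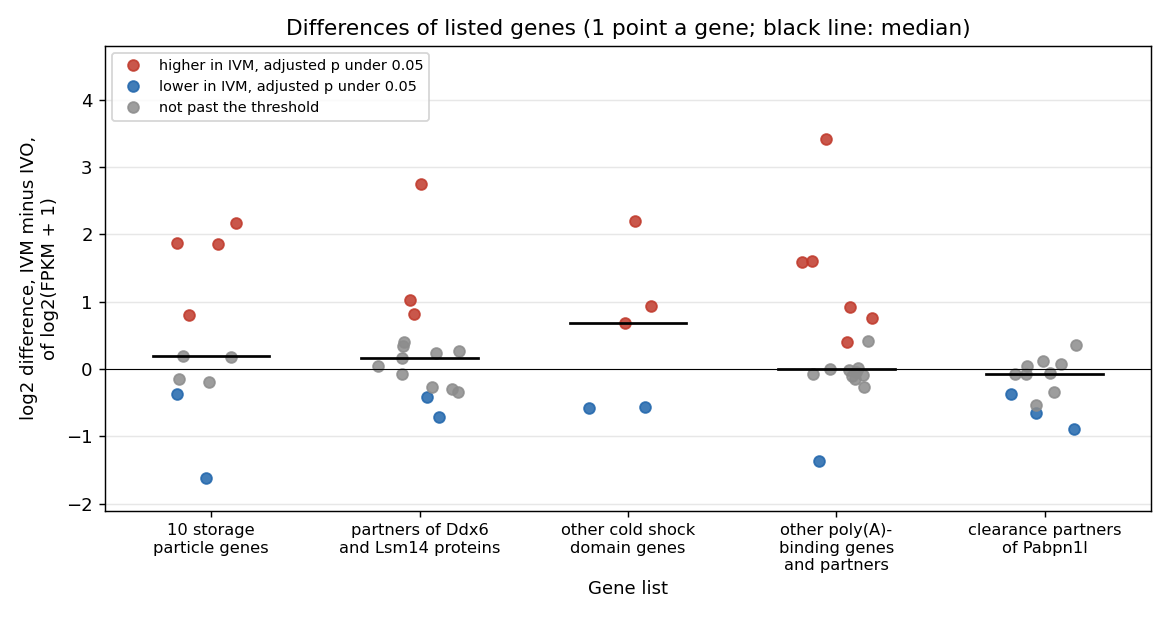
Log2 difference (IVM minus IVO, on the log2(FPKM + 1) scale) of the 10 genes and of the tested genes in the 4 partner lists, 1 point a gene, with the median as a black line. Red and blue points passed an adjusted p of 0.05. The medians, taken over all points of a list whether or not they passed, are 0.19, 0.17, 0.68, 0.00806 and -0.08 from left to right.

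Summed FPKM was 353438 to 364983 in IVM and 394233 to 402054 in IVO, and read numbers are unknown. The 10 oocyte markers summed to 13205 to 13557 FPKM in IVM and 8455 to 10367 in IVO, and most of that was Gdf9, at 7946 to 8707 and 6380 to 7465. Of these markers 9 reached a mean of 1 FPKM, and Figla was listed at 0 in every IVO library. Blood and immune markers summed to at most 3.53, and 9 oviduct markers to 221 to 249 in IVM and 264 to 283 in IVO. Of the oviduct markers 3 reached a mean of 1 FPKM, Cdh1 and Cldn4 made most of the sum, and Pax8 was at 0 in all libraries. Apart from Cdh1, Cldn4 and Spp1, no oviduct marker exceeded 1.59 FPKM in any library. The oviduct sum thus mostly follows Cdh1 and Cldn4, whose cell of origin was not tested. The balance of directions over all genes moved both ways with the setting: when all libraries were set to an equal total, 1949 genes passed as higher and 1167 as lower, against 1595 and 1583 as deposited, and the median difference of all tested genes went from -0.02 to 0.10. Quantile normalization gave 1426 higher and 1778 lower with a median of -0.08, and a mean FPKM of at least 5 gave 835 and 1392 with a median of -0.12. The same 4 of the 10 genes were higher and the same 2 lower with libraries at an equal total, where Lsm14a was at -0.22.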

How the data were processed

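The members and gene lists were chosen with earlier results of these data known. The authors deposited, per the file headers, 1 FPKM value for each gene in each library, with a p-value and a q-value for IVM against IVO. How fragments were counted and whether libraries were scaled to each other is not given in the sources used here. The build named in the submitters' processing notes is mm9. However, 22966 of 23104 symbols found in GENCODE M21 (99.4%) overlap their gene in GRCm38, so coordinates and sequences are from GENCODE M21 on GRCm38, matched by symbol and overlap. FPKM values keep no read count, so no counting interval is given.

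The test was limma 3.58.1 (R 4.3.3), two-sided, with its variance trended on level and values taken as log2(FPKM + 1). It covered the 7746 genes whose mean FPKM was at least 1, with a Benjamini-Hochberg threshold of 0.05. This scale understates the change of low genes. The procedure was tested on simulated data. Ratios were tested with the exact permutation test of scipy 1.17.1. The transcript per gene was chosen by its annotated principal rank, then by membership of the consensus coding set, then by length. Named were all 10 genes, up to 4 called genes per list with the largest difference, and Pabpn1. Cnot7, Cnot6l, Eif4enif1, Edc4, Lin28a, Lsm1, Lsm2, Lsm3, Lsm5, Lsm6 and the markers given singly were added after their values were seen. The values of 1 gene named by this rule are not reported here. Alternatives covered pseudocount, filter, scaling, variance model, sample weights, replicate block, transcript length, threshold, the authors' q-values and each library left out.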

Additional observations from a re-analysis of the deposited data

How the results depend on the processing

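The number of the 10 genes called was 5 to 7 under every setting tried, and no called gene changed direction. Among the called genes only Ddx6 lost its call, without IVM replicate 2, under quantile normalization and at a threshold of 0.01, and the cause was not tested. Ddx6 and Pabpc1 have means under 5 FPKM and so gave no value where at least 5 was required. Over all tested genes 3178 passed, 2028 at an adjusted p under 0.01, and 2382 to 3251 with 1 library left out. In the partner lists 20 genes passed, 16 to 19 with 1 library left out. Pabpn1 passed with the length trend removed (-0.30, adjusted p = 0.0281). The difference in the Pabpn1l to Pabpn1 ratio was 0.00475 and changed sign with 1 library left out, from -0.278 to 0.236. The other 4 ratios kept their direction: 1.74 to 2.38 for Ybx2 to Ybx1, -1.35 to -1.17 for Lsm14b to Lsm14a, 1.92 to 2.61 for Zar1l to Zar1 and 1.27 to 2.34 for Pabpc1l to Pabpc1.

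With the replicate number as a block, 3184 genes passed, 6 of the 10 genes and 20 partner genes, and the mean paired differences in ratios were the unpaired ones, with an exact p of 0.25 for each of the 4 ratios above, the smallest that 3 pairs allow. Deviations of same-numbered libraries correlated at 0.0599 to 0.0900, and those of other pairs at -0.112 to 0.0470. All 6 libraries correlated best with their own number. The labels give a shared number only, and whether same-numbered libraries were prepared together cannot be told from these low correlations. Read numbers are unknown, so the counting error of low genes, such as Ddx6, Pabpc1, Pabpc1l in IVO and Lsm4 in IVO, cannot be given.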
